A study of Rattus norvegicus with 294 samples.

Results

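Bone lining cells were compared on day 237 between rats that had received a sclerostin antibody (Scl-Ab) at 50 mg/kg until day 183 and rats that had received vehicle. The comparison takes every array labelled lining cell and day 237, which gives 10 arrays of 294, 5 for vehicle and 5 for 50 mg/kg, out of 100 arrays of lining cells. All rats were female Sprague-Dawley rats that were 6 months old when the ovaries were removed, stayed untreated for 8 weeks and were then injected under the skin once a week. Vehicle was a buffer of Tween 20, sucrose and sodium acetate, and day 237 lay 54 days after the last dosing day. Cells were laser-captured from thin frozen sections of the third lumbar vertebra of the first 5 animals of a group and day, with calcein given before death to mark forming bone surfaces and help tell osteoblasts from lining cells. The capture enriches for a cell type and does not purify it, and the RNA was amplified before it was put on Affymetrix rat expression arrays. Where a difference in response is tested, the vehicle and 50 mg/kg lining cell arrays of day 183 and of day 309 (126 days after the last dosing day) and the osteoblast and osteocyte arrays of day 237 from the same study also enter. Each of those groups held 5 arrays, other than 4 for osteoblasts at 50 mg/kg. The lining cell fit held 20 groups of 5 arrays, among them rats given Scl-Ab at 3 mg/kg and groups of other days. Their values enter the courses over days 8 to 309 below. Vehicle arrays of days 197 and 267 also serve in a late vehicle control. The fit over the 3 cell types held all 294 arrays.

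Lining cells are flat cells of the osteoblast lineage on bone surfaces that are neither being built nor resorbed. Sclerostin, the product of Sost in osteocytes, binds the co-receptors LRP5 and LRP6 and so holds back Wnt signalling, and blocking it raises bone formation. The bone surface borders marrow, which holds blood-forming cells, megakaryocytes and fat cells. Fat cells and osteoblasts arise from shared stromal precursors, and Wnt signalling favours the osteoblast branch.

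Levels below are log2 RMA intensities, a unit of probe brightness, and differences are log2 fold changes of 50 mg/kg against vehicle with their standard error (SE). A gene was called where limma's Benjamini-Hochberg adjusted p was under 0.05 over 11600 genes. Correlations between any 2 of the 10 arrays ran from 0.964 to 0.986. Signal range, the 90th minus the 50th percentile of an array, was 3.23 ± 0.175 (SD, n = 5) for vehicle and 3.09 ± 0.0237 (SD, n = 5) for 50 mg/kg (exact two-sided permutation p = 0.103, with 0.00794 the smallest 5 against 5 can give). A mean of 38 erythroid, granulocyte and B-lineage markers was 7.70 ± 0.131 and 7.58 ± 0.0811 (SD, n = 5 each, exact two-sided permutation p = 0.119). Vehicle replicate 5 lay apart in that mean at 7.47, and without it both p were 0.00794. The labels tie no array to a rat, so p-values measure the spread between arrays. The permutation p-values rest on these 10 arrays alone. Those of limma rest on the spread within groups pooled over all 100 lining cell arrays. For osteoblasts, osteocytes and differences between cell types it is pooled over all 294 arrays. Of genes that the osteoblast lineage makes, vehicle means were 8.08 for Col1a1 and 7.36 for Bglap, above array medians of 3.15 to 3.25. Others lay near or below those medians, with 3.60 for Omd, 3.47 for Postn and 2.92 for Lox. Marrow genes were bright too. Summed linear intensity on the vehicle arrays was 23997 to 28462 for 17 erythroid and 16602 to 20113 for 10 granulocyte markers. For 29 bone matrix genes it was 1818 to 4080. Sost, the osteocyte gene targeted by the antibody, did not pass the filter on low values (2.36 to 2.73 on the vehicle arrays and 2.70 to 2.95 on the 50 mg/kg arrays). The part of marrow content or signal range in any difference below was not tested beyond the fits with each as a covariate.

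At day 237, 168 genes were called, which is 1.45% of the 11600 tested. Of these, 61 (0.526%) were higher and 107 (0.922%) were lower at 50 mg/kg, and after quantile normalization the split was 72 higher and 69 lower. The median over all genes was -0.02. At an unadjusted p under 0.05 there were 1763 genes. Changes were modest: called rises ran from 0.43 to 1.24 and called falls from 0.48 to 1.93 in size. The 2 groups of arrays did not overlap for 424 genes, or 3.66% of those tested (1.41% higher and 2.25% lower), which took in 43 of the 61 called rises and 56 of the 107 called falls. The genes that fell furthest included Stfa2l2, Car3, Pck1, Adipoq and Xist, while those that rose furthest included Alox12, Selp, Myl9, Tpm2 and Lmna. The number of called genes rested on some arrays: it was 59 without vehicle replicate 4, 77 without vehicle replicate 3, 82 without vehicle replicate 2, 101 and 108 without 50 mg/kg replicates 4 and 3, and 255 without vehicle replicate 5.

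**Figure D1:**
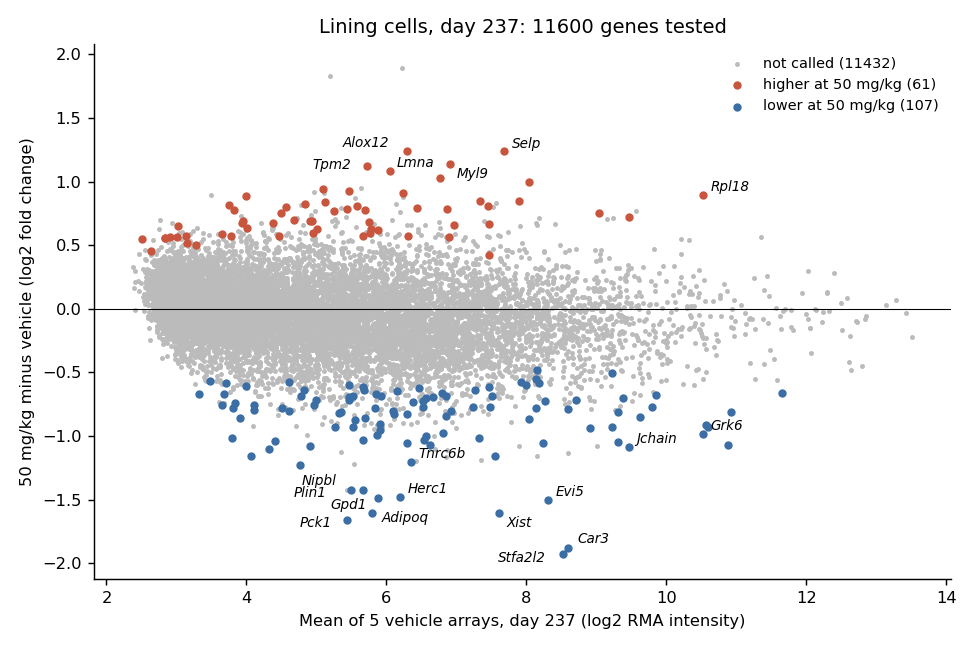
Each point is 1 of 11600 genes in lining cells at day 237, placed by its mean log2 RMA intensity on the 5 vehicle arrays (x axis) and its log2 fold change of 50 mg/kg minus vehicle (y axis). Red points are the 61 genes called higher, blue points the 107 called lower and grey points the rest. Among the blue points furthest below 0 are Stfa2l2, Car3, Pck1 and Adipoq, and Alox12 and Selp are the red points furthest above it.

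A share of the adipocyte genes was lower in lining cells after 50 mg/kg had ended. Pck1, the cytosolic enzyme that makes glycerol backbone for fat storage, Adipoq, the fat cell hormone adiponectin, and Plin1 and Cidec, coat proteins of the lipid droplet, fell together with Lpl, which frees fatty acids from lipoproteins. These were 5 of the 16 tested members of the adipocyte list (0.922% of all genes were called lower), none of the 16 was called higher, and the median of the list was -0.21 against -0.02 over all genes. Car3, a carbonic anhydrase abundant in fat and muscle, and Gpd1, which supplies glycerol phosphate, fell as well. The remaining 11 list members were not called. Among them were Pparg, the master factor of fat cell formation, at -0.04 (adjusted p = 0.976), the fatty acid carrier Fabp4 at 0.06 (adjusted p = 0.93) and the fat cell protease Cfd at 0.12 (adjusted p = 0.903). Acsl1, a fatty acid activating enzyme, and Plin4, another droplet coat protein, came near the threshold at -0.74 (adjusted p = 0.0514) and -0.63 (adjusted p = 0.0582). Summed over the list, the linear intensity was 613 to 773 on the vehicle arrays and 440 to 737 on the 50 mg/kg arrays, so the ranges overlapped. In captured tissue, fewer fat cells and less of these RNAs per cell cannot be told apart.

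The promoters of the 4 list members with the largest falls are shown because these genes were called lower together. Each runs from 250 bases before to 50 after the RefSeq gene start in the build GRCr8, on the gene's strand. Adipoq lies on the minus strand at chr11:91240120-91240419, Plin1 on the minus strand at chr1:143086099-143086398, Cidec on the minus strand at chr4:148137066-148137365 and Pck1 on the plus strand at chr3:182348322-182348621. Capitals mark the core hexamer bound by nuclear receptors (AGGTCA, or TGACCT on the other strand) or a C/EBP site (TTGCNNAA, or TTNNGCAA on the other strand) and both strands were searched. No window held both motifs, so they do not overlap.
Adipoq: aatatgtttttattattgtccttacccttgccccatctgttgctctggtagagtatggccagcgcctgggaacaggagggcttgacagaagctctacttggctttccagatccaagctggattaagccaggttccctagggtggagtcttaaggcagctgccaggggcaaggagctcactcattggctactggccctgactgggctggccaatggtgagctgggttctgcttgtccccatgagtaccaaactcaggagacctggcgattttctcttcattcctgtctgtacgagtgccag
Plin1: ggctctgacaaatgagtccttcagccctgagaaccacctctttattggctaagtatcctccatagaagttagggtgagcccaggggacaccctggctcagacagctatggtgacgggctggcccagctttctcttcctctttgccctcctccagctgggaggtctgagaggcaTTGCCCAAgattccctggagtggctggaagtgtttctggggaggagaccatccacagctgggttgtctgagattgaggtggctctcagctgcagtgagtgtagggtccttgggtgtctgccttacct
Cidec: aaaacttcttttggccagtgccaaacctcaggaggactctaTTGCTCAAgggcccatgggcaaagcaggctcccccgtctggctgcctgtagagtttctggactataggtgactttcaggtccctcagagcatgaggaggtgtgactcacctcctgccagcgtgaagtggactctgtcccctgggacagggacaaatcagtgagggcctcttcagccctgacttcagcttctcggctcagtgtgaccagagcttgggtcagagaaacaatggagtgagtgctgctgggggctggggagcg
Pck1: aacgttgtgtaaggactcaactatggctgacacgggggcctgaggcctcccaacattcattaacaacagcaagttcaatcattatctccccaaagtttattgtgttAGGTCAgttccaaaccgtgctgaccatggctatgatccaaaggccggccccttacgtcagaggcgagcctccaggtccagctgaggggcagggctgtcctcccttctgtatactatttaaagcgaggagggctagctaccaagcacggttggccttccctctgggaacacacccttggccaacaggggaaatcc
The Plin1 and Cidec windows held a C/EBP site, 77 and 209 bases before the start. The Pck1 window held the hexamer 144 bases before the start, and in the Adipoq window neither set of letters was found. Of 33469 promoter windows of this length in the table, 16.2% held the hexamer and 10.6% the C/EBP site. Among the 9620 tested genes with a window the shares were 12.2% and 8.32%. Of the 12 tested list members with a window, 1 held the former and 3 the latter. These matches describe letters and not binding.

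Adipoq measured 5.99, 5.79, 5.36, 5.49 and 6.37 on vehicle replicates 1 to 5 and 3.78, 3.50, 4.21, 5.41 and 4.06 on 50 mg/kg replicates 1 to 5. Only 50 mg/kg replicate 4 reached the vehicle range, just above the lowest vehicle array. The difference was -1.61 (SE 0.40, adjusted p = 0.0198), 3.05-fold lower, and all 5 treated arrays lay below the vehicle mean. Pck1 measured 6.10, 5.52, 4.13, 5.59 and 5.80 on the vehicle arrays and 3.60, 3.87, 3.04, 4.46 and 3.87 on the 50 mg/kg arrays. Here vehicle replicate 3 was the low array of its group and overlapped 50 mg/kg replicate 4. The difference for Pck1 was -1.66 (SE 0.43, adjusted p = 0.0247), 3.16-fold lower.

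Plin1 measured 5.69, 5.37, 4.79, 5.30 and 6.31 with vehicle and 4.00, 3.61, 3.59, 4.96 and 4.17 with 50 mg/kg, a difference of -1.43 (SE 0.35, adjusted p = 0.0182). Again 50 mg/kg replicate 4 was the highest treated array and vehicle replicate 3 the lowest control, and these 2 arrays alone overlapped. Cidec measured 4.64, 4.50, 3.41, 4.55 and 4.55 with vehicle and 2.95, 2.93, 3.11, 3.66 and 3.49 with 50 mg/kg, a difference of -1.10 (SE 0.26, adjusted p = 0.0153). Without its low vehicle replicate 3 the groups of Cidec would not overlap. Lpl did not overlap at all, with 4.37, 4.12, 3.69, 3.94 and 4.44 against 3.29, 3.23, 3.59, 3.52 and 3.15 and a difference of -0.76 (SE 0.20, adjusted p = 0.0294); it was named after its value was seen.

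Car3 had the largest fall after Stfa2l2: 8.73, 8.59, 7.78, 8.67 and 9.18 on the vehicle arrays against 6.37, 6.30, 5.85, 7.81 and 7.24 on the 50 mg/kg arrays. Only 50 mg/kg replicate 4 rose above the lowest vehicle array, replicate 3. The difference was -1.88 (SE 0.47, adjusted p = 0.0209), 3.68-fold lower. Gpd1 did not overlap, with 5.67, 5.78, 5.51, 5.79 and 6.61 against 3.65, 3.72, 4.40, 5.40 and 4.74 and a difference of -1.49 (SE 0.40, adjusted p = 0.0335). Without 50 mg/kg replicate 2, Adipoq was not called, at -1.43 (adjusted p = 0.0671). Without vehicle replicate 4, Cidec was not called, at -1.05 (adjusted p = 0.0537). Car3 was not called in the fits that left out, 1 array at a time, vehicle replicate 4 or 50 mg/kg replicates 2 and 3, with values from -1.86 to -1.66 (adjusted p = 0.0524 to 0.0779). Plin1 was not called in the fits that left out, 1 array at a time, vehicle replicate 5 or 50 mg/kg replicates 2 and 3, with values from -1.31 to -1.22 (adjusted p = 0.0528 to 0.0624). Pck1 was not called in the fits that left out, 1 array at a time, vehicle replicates 1, 2 and 4 or 50 mg/kg replicate 3, with values from -1.64 to -1.48 (adjusted p = 0.0571 to 0.0897). Gpd1 was not called in the fits that left out, 1 array at a time, vehicle replicates 2, 3, 4 and 5 or 50 mg/kg replicates 1, 2 and 3, with values from -1.58 to -1.30 (adjusted p = 0.0545 to 0.109). The call of Plin1 ended with the mean of its probe sets (-0.66, adjusted p = 0.065). The call of Gpd1 ended with the marrow marker mean as a covariate (-1.40, adjusted p = 0.0557), with the mean of its probe sets (-0.68, adjusted p = 0.0812), after quantile normalization (-1.36, adjusted p = 0.0735), with signal range as a covariate (-1.34, adjusted p = 0.0573) and against the late vehicle arrays (-1.19, adjusted p = 0.0781).

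**Figure D2:**
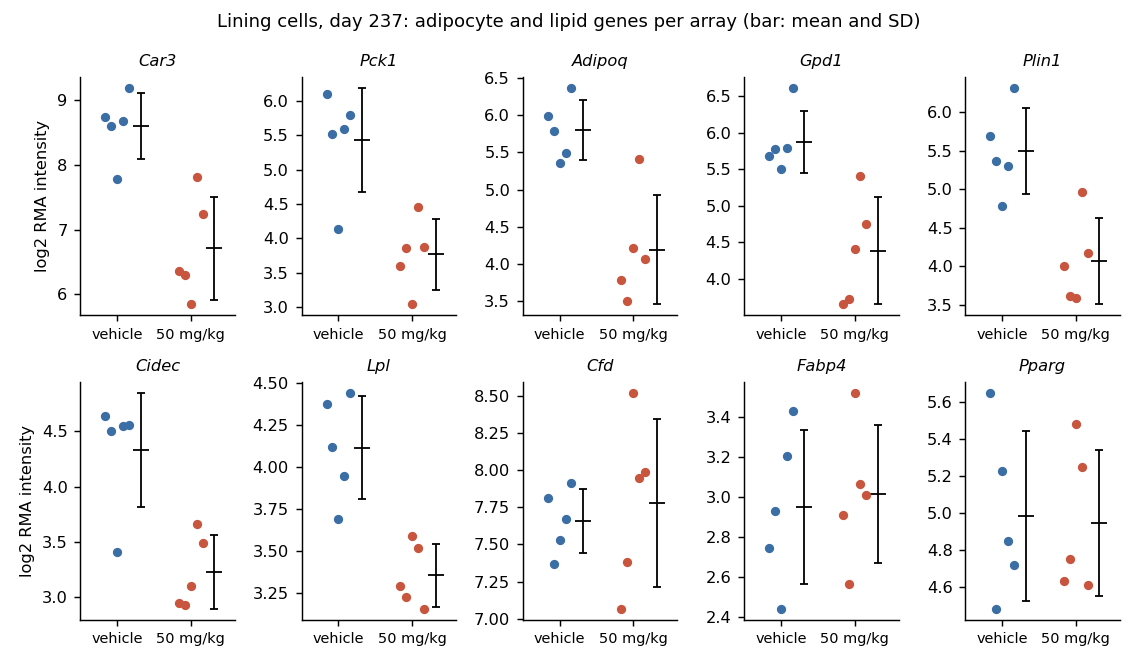
Log2 RMA intensity (y axis) of 10 adipocyte and lipid genes on each lining cell array of day 237, vehicle in blue and 50 mg/kg in red, with the group mean and SD beside the points. The upper row and Cidec and Lpl sit lower with 50 mg/kg, while Cfd, Fabp4 and Pparg overlap; 50 mg/kg replicate 4 is the highest red point for Car3, Pck1, Adipoq, Gpd1, Plin1 and Cidec.

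Across the days of the study, the mean of Adipoq spread more with vehicle than with 50 mg/kg, which had no arrays on days 197 and 267. Mean Adipoq in vehicle lining cells was 4.11, 3.65, 4.18 and 4.71 on days 8, 29, 85 and 183, then 5.66 ± 0.68, 5.80 ± 0.40 and 5.71 ± 0.75 on days 197, 237 and 267, and 4.68 ± 0.77 on day 309 (SD, n = 5 each). With 50 mg/kg the mean was 3.94, 3.18, 4.21, 4.47, 4.19 and 4.46 on days 8, 29, 85, 183, 237 and 309, so day 237 was within the range of its other days. Rats off 3 mg/kg had 4.14 ± 1.02 on day 197 and 6.26 ± 0.78 on day 267, 14 and 84 days after the last dosing day, against vehicle differences of -1.51 (adjusted p = 0.34) and 0.55 (adjusted p = 0.586). Levels of different days were not tested against each other.

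With vehicle, the means of Plin1 and Car3 were also higher on day 237 than on days 183 and 309. Vehicle means of Plin1 were 4.75 on day 183, 5.49 on day 237 and 4.44 on day 309, and those at 50 mg/kg were 4.13, 4.07 and 4.45. For Car3 they were 6.70, 8.59 and 7.71 with vehicle and 6.16, 6.71 and 7.47 at 50 mg/kg. On day 183 the differences were -0.24 for Adipoq, -0.35 for Pck1, -0.62 for Plin1 and -0.55 for Car3, none of them called (0.810% of genes were called higher and 0.190% lower that day). On day 309 they were -0.22, -0.60, 0.00 and -0.24, again not called (0.405% of genes called, 0.0776% higher and 0.328% lower). The change in response from day 183 to day 237 was -1.36 (SE 0.56, adjusted p = 0.232) for Adipoq and -1.33 (SE 0.66, adjusted p = 0.358) for Car3, so neither was shown to respond differently on the 2 days. When the vehicle arrays of days 183 to 309 served together as control (the late vehicle arrays), Adipoq moved to -1.12 (adjusted p = 0.070), Car3 to -1.34 (adjusted p = 0.0801) and Cidec to -0.79 (adjusted p = 0.0513), while Pck1 at -1.32 (adjusted p = 0.0433) and Plin1 at -1.12 (adjusted p = 0.0415) were past the threshold.

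**Figure D3:**
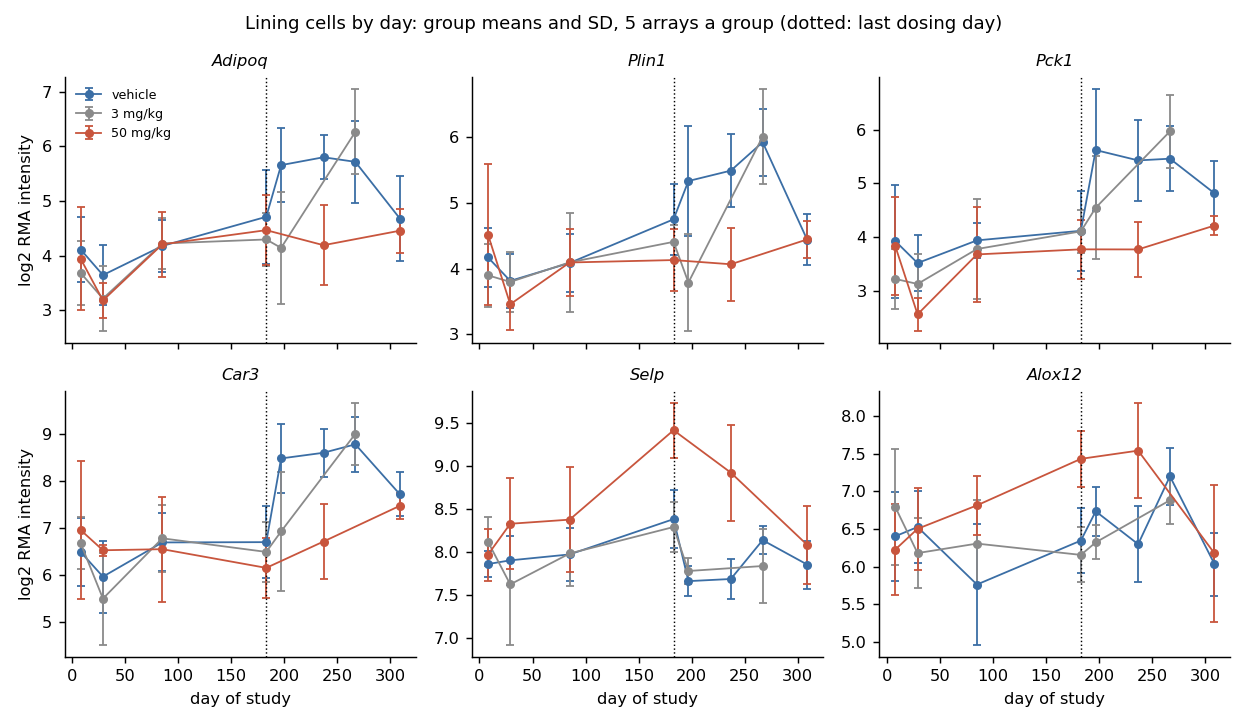
Mean log2 RMA intensity (y axis, bars are SD, 5 arrays a group) of 6 genes in lining cells by day of study (x axis) for vehicle (blue), 3 mg/kg (grey) and 50 mg/kg (red), with the last dosing day 183 dotted. Adipoq, Plin1, Pck1 and Car3 stand high with vehicle from day 197 to day 267, while the red line stays low on day 237; Selp and Alox12 stand high with 50 mg/kg on days 183 and 237.

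Some lipid genes were also lower in the other captures of day 237. In osteoblasts, where 9.35% of 12507 genes were called (2.79% higher and 6.56% lower), Pck1 was at -1.92 (adjusted p = 0.00498), Car3 at -1.43 (adjusted p = 0.0397), Adipoq at -1.39 (adjusted p = 0.043) and Gpd1 at -1.28 (adjusted p = 0.043). In osteocytes, where 13.3% were called (7.11% higher and 6.21% lower), Car3 was at -2.10 (adjusted p = 0.000182), Pck1 at -1.54 (adjusted p = 0.0109) and Plin1 at -1.22 (adjusted p = 0.0206). Of the 16 adipocyte list members 3 were called lower in osteoblasts and 3 in osteocytes. The response of Adipoq differed by -0.22 (SE 0.65, adjusted p = 0.997) between lining cells and osteoblasts, and that of Car3 by -0.45 (SE 0.66, adjusted p = 0.992). All 3 captures came from the first 5 animals of a group and day, so they are not independent; the labels do not say which array is which rat, and the tests between cell types hold no term for the rat.

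Selp and Alox12, genes expressed in platelets, were higher at 50 mg/kg than with vehicle on day 237, as Selp also was on day 183. Selp, the adhesion receptor P-selectin of platelet granules and endothelium, and Alox12, the platelet 12-lipoxygenase, had the largest called rises. Selp measured 8.08, 7.59, 7.66, 7.47 and 7.62 on the vehicle arrays and 9.27, 8.84, 7.98, 9.34 and 9.18 on the 50 mg/kg arrays. Treated replicate 3 was the exception, lying between vehicle replicate 1 and the other controls. The rise was 1.24 (SE 0.23, adjusted p = 0.00126), 2.36-fold, with all 5 treated arrays above the vehicle mean. Alox12 measured 7.06, 5.80, 6.52, 6.20 and 5.92 with vehicle and 7.81, 7.82, 6.51, 8.15 and 7.41 with 50 mg/kg, again with treated replicate 3 lowest and within the vehicle range. Its rise was 1.24 (SE 0.32, adjusted p = 0.0263). Alox12 was not called in the fits that left out, 1 array at a time, vehicle replicates 2, 4 and 5 or 50 mg/kg replicates 1, 2 and 4, with values from 1.09 to 1.22 (adjusted p = 0.0539 to 0.0987).

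The megakaryocyte list had 9 tested members. All 9 had positive differences, 1 (Selp) was called (0.526% of all genes were called higher), and the list median was 0.62 against -0.02 over all genes. Gp9, a subunit of the von Willebrand factor receptor, was at 0.83 (adjusted p = 0.0604) and Itga2b, the platelet integrin alpha IIb, at 0.80 (adjusted p = 0.0773). Itga2b did not overlap, with 7.26 to 7.74 against 7.81 to 8.90. Treml1 at 0.67 (adjusted p = 0.209), Gp5 at 0.62 (adjusted p = 0.227), Ppbp at 0.53 (adjusted p = 0.203) and the platelet chemokine Pf4 at 0.30 (adjusted p = 0.432) were not called. Vwf, which endothelium also makes, was at 0.39 (adjusted p = 0.605). The summed linear intensity of the list was 5295 to 6254 on the vehicle arrays and 6693 to 10412 on the 50 mg/kg arrays, which do not overlap. Of 17 endothelial markers none was called, near the background of 1.45% of all genes, 14 had positive differences and their median was 0.13. Their summed linear intensity was 711 to 777 on the vehicle arrays and 785 to 980 on the 50 mg/kg arrays, which do not overlap either. Whether more platelets or megakaryocytes, or more of these RNAs in each, lay behind the rise of the megakaryocyte list cannot be told apart.

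**Figure D4:**
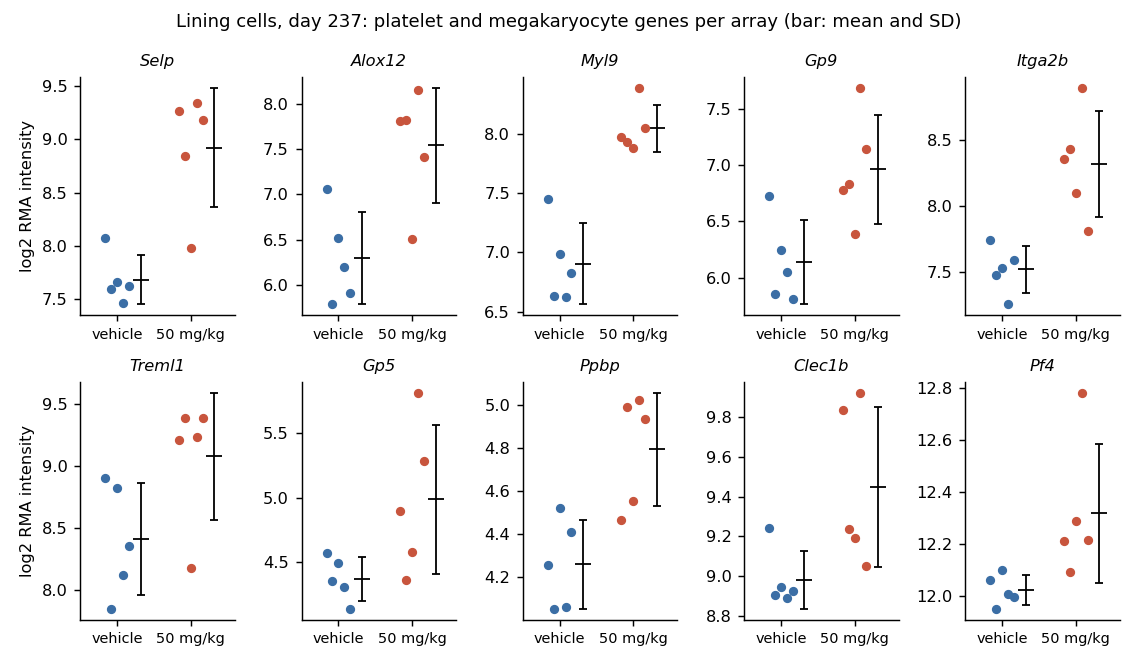
Log2 RMA intensity (y axis) of 10 platelet, megakaryocyte and contractile genes on each lining cell array of day 237, vehicle in blue and 50 mg/kg in red, with the group mean and SD beside the points. Every gene has its red mean above its blue mean; Myl9 and Itga2b do not overlap, and 50 mg/kg replicate 3 is the lowest red point for Selp, Alox12, Gp9 and Treml1.

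Selp was also called higher on the last dosing day, day 183, and was not called on day 309. Its difference was 1.04 (SE 0.23, adjusted p = 0.00807) on day 183 and 0.23 (SE 0.23, adjusted p = 0.804) on day 309. Mean Selp was 8.38 ± 0.34 with vehicle and 9.41 ± 0.32 with 50 mg/kg on day 183, and 7.85 ± 0.28 and 8.08 ± 0.46 on day 309 (SD, n = 5 each). Alox12 was at 1.08 (adjusted p = 0.0806) on day 183 and 0.14 (adjusted p = 0.927) on day 309. On day 183, 3 of the 9 list members were called higher (0.810% of genes), with a median of 0.84. On day 309 none was, with a median of 0.08. On day 85, while dosing went on, the median of the list was 0.60. From day 183 to day 237 the response of Selp moved by 0.20 (SE 0.33, adjusted p = 0.838).

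In osteoblasts of day 237 Selp was at 1.15 (adjusted p = 0.00473) and Alox12 at 1.01 (adjusted p = 0.0493). In osteocytes they were at -0.26 (adjusted p = 0.613) and -0.47 (adjusted p = 0.408). The response of lining cells exceeded that of osteocytes by 1.50 (SE 0.38, adjusted p = 0.00624) for Selp, 1.71 (SE 0.47, adjusted p = 0.0131) for Alox12 and 1.62 (SE 0.38, adjusted p = 0.00198) for Gp9. This call of Alox12 ended in a fit of only the groups compared (1.71, adjusted p = 0.116). In that difference 4.25% of 12507 genes were called, 1.07% higher and 3.18% lower. The cell types appear to have been normalized apart, so only responses, and not levels, are compared between them.

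Myl9, Lmna, Tpm2 and Rsu1 were also among the largest rises. Myl9, a regulatory light chain of smooth muscle and platelet myosin, measured 7.45, 6.64, 6.99, 6.62 and 6.82 with vehicle and 7.97, 7.93, 7.88, 8.38 and 8.05 with 50 mg/kg and did not overlap, a rise of 1.14 (SE 0.25, adjusted p = 0.00861). Lmna, which encodes lamins A and C of the nuclear envelope, measured 6.67, 5.68, 6.29, 5.58 and 6.00 with vehicle and 7.13, 7.48, 7.04, 7.11 and 6.88 with 50 mg/kg and did not overlap, a rise of 1.09 (SE 0.24, adjusted p = 0.00897). Another Lmna probe set gave 0.34. Tpm2, beta-tropomyosin, rose by 1.13 (SE 0.30, adjusted p = 0.0308), and its groups overlapped. Tpm2 was not called in the fits that left out, 1 array at a time, vehicle replicates 3, 4 and 5 or 50 mg/kg replicates 3, 4 and 5, with values from 0.94 to 1.09 (adjusted p = 0.0625 to 0.124). The call of Tpm2 ended with the mean of its probe sets (0.61, adjusted p = 0.0918). Rsu1, a partner of the integrin-linked kinase complex, measured 8.43, 8.27, 7.18, 8.28 and 8.02 with vehicle and 9.20, 8.62, 9.08, 9.50 and 8.77 with 50 mg/kg, and its rise of 0.997 (SE 0.19, adjusted p = 0.00182) left no overlap. Cyth1, an exchange factor for Arf GTPases, rose by 0.93 (SE 0.18, adjusted p = 0.00126), and Clcn2, a chloride channel, by 0.89 (SE 0.20, adjusted p = 0.00897). Selp, Myl9, Lmna, Rsu1, Cyth1 and Clcn2 stayed called in all 8 other fits and in all 10 fits without 1 array.

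The other large rises were those of Rpl18, Lsm7, Mrpl52 and Btbd9. Rpl18, a protein of the large ribosomal subunit, measured 10.54, 10.31, 10.70, 10.59 and 10.50 with vehicle and 11.26, 11.29, 12.17, 11.51 and 10.88 with 50 mg/kg without overlap, a rise of 0.89 (SE 0.20, adjusted p = 0.0108). Lsm7, part of the ring that binds U6 RNA, rose by 1.03 (SE 0.23, adjusted p = 0.00897), and Mrpl52, a mitochondrial ribosomal protein, by 0.91 (SE 0.23, adjusted p = 0.0247). Btbd9, a BTB domain protein, rose by 0.94 (SE 0.22, adjusted p = 0.0126). Second probe sets did not follow for Mrpl52 (-0.28), Btbd9 (0.07) and Lsm7 (0.11, a dim one). The probe set with the highest mean over all 294 arrays stands for a gene. The call of Rpl18 ended against the late vehicle arrays (0.37, adjusted p = 0.347). The call of Mrpl52 ended with the mean of its probe sets (0.32, adjusted p = 0.442) and against the late vehicle arrays (0.54, adjusted p = 0.151). The call of Btbd9 ended with the mean of its probe sets (0.50, adjusted p = 0.0722) and against the late vehicle arrays (0.64, adjusted p = 0.0817). The call of Lsm7 ended with the mean of its probe sets (0.57, adjusted p = 0.0647). Without 50 mg/kg replicate 3, Rpl18 was not called, at 0.71 (adjusted p = 0.0756). Mrpl52 was not called in the fits that left out, 1 array at a time, vehicle replicates 2 and 4 or 50 mg/kg replicate 4, with values from 0.82 to 0.86 (adjusted p = 0.0724 to 0.0877). Without 50 mg/kg replicate 4, Btbd9 was not called, at 0.82 (adjusted p = 0.0578). In the ribosome biogenesis list 0 of 29 members were called, near the background of 1.45% of all genes, and its median was 0.01.

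Xist, Nipbl, Tnrc6b and Herc1 fell unevenly across the treated arrays, and Evi5 and Emsy fell without overlap between the groups. Xist is the noncoding RNA that coats the inactive X chromosome, Nipbl loads cohesin, Tnrc6b serves microRNA silencing, Herc1 is a giant ubiquitin ligase, Evi5 acts on Rab GTPases and Emsy is a chromatin protein. Xist measured 6.56, 6.92, 7.63, 8.69 and 8.27 with vehicle and 4.93, 7.25, 5.78, 4.87 and 7.23 with 50 mg/kg, a difference of -1.60 (SE 0.42, adjusted p = 0.0259). Treated replicates 1, 3 and 4 lay below every vehicle array, while treated replicates 2 and 5 lay within the vehicle range. Herc1 measured 5.58, 5.72, 6.45, 6.83 and 6.42 with vehicle and 3.10, 6.10, 4.45, 3.96 and 5.99 with 50 mg/kg, a difference of -1.48 (SE 0.33, adjusted p = 0.00897). Nipbl measured 5.20, 5.82, 6.13, 6.28 and 4.87 with vehicle and 2.97, 5.49, 3.69, 3.88 and 5.15 with 50 mg/kg, a difference of -1.42 (SE 0.31, adjusted p = 0.00897). The same 3 treated arrays were the low ones for Herc1, Nipbl and Tnrc6b. Their signal range of 3.05 to 3.11 took in that of the other 2, at 3.10 and 3.09. Their marrow marker means of 7.54, 7.62 and 7.45 lay below those of the other 2, at 7.64 and 7.63. Whether either measure bears on these falls was not tested beyond the fits with each as a covariate.

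Tnrc6b measured 5.52, 6.26, 6.75, 6.78 and 6.42 with vehicle and 3.98, 6.26, 4.65, 4.23 and 6.61 with 50 mg/kg, a difference of -1.20 (SE 0.27, adjusted p = 0.0108). Evi5 fell by 1.50 (SE 0.28, adjusted p = 0.00108) and Emsy by 1.23 (SE 0.22, adjusted p = 0.000613), and neither overlapped. Only 1 probe set of each gene showed the full fall: other probe sets gave -0.41, -0.54 and -0.56 for Xist, -0.26 and -0.14 for Evi5, 0.03 and 0.01 for Emsy, 0.14 for Herc1, -0.23, 0.14 and 0.03 for Nipbl, and -0.46 and -0.07 for Tnrc6b. Xist was not called in the fits that left out, 1 array at a time, vehicle replicates 3, 4 and 5 or 50 mg/kg replicates 1, 3 and 4, with values from -1.60 to -1.32 (adjusted p = 0.0601 to 0.136). Without 50 mg/kg replicate 1, Herc1 was not called, at -1.07 (adjusted p = 0.0655). Without 50 mg/kg replicate 1, Nipbl was not called, at -1.11 (adjusted p = 0.0522). Tnrc6b was not called in the fits that left out, 1 array at a time, vehicle replicate 4 or 50 mg/kg replicates 1 and 4, with values from -1.09 to -0.91 (adjusted p = 0.0513 to 0.0681). The call of Xist ended with the mean of its probe sets (-0.78, adjusted p = 0.127), in a fit of only the groups compared (-1.60, adjusted p = 0.087) and against the late vehicle arrays (-0.19, adjusted p = 0.867). The call of Herc1 ended with the mean of its probe sets (-0.67, adjusted p = 0.0881), in a fit of only the groups compared (-1.48, adjusted p = 0.0965) and against the late vehicle arrays (-0.42, adjusted p = 0.542). The call of Nipbl ended with the mean of its probe sets (-0.37, adjusted p = 0.0548), in a fit of only the groups compared (-1.42, adjusted p = 0.0735) and against the late vehicle arrays (-0.56, adjusted p = 0.364). The call of Tnrc6b ended in a fit of only the groups compared (-1.20, adjusted p = 0.145) and against the late vehicle arrays (-0.16, adjusted p = 0.837). The call of Evi5 ended against the late vehicle arrays (-0.41, adjusted p = 0.559). The call of Emsy ended with the mean of its probe sets (-0.40, adjusted p = 0.0647). Of the 6 genes only Emsy stayed called against the late vehicle arrays, at -0.77 (adjusted p = 0.0139). The vehicle mean of Xist was 7.61 ± 0.89 on day 237 but 5.44 ± 0.51 on day 183, 6.24 ± 0.38 on day 267 and 5.82 ± 0.59 on day 309 (SD, n = 5 each).

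Of these 6 transcripts, 5 responded differently in lining cells and osteoblasts. The response of lining cells minus that of osteoblasts was -2.30 (SE 0.40, adjusted p = 0.000119) for Tnrc6b, -1.99 (SE 0.48, adjusted p = 0.0416) for Nipbl, -1.99 (SE 0.46, adjusted p = 0.0277) for Herc1, -1.69 (SE 0.41, adjusted p = 0.0438) for Evi5 and -1.57 (SE 0.37, adjusted p = 0.0312) for Emsy, in a difference where 0.136% of 12507 genes (17) were called, 0.00800% higher and 0.128% lower. This call of Herc1 ended with the mean of its probe sets (-1.01, adjusted p = 0.226) and in a fit of only the groups compared (-1.99, adjusted p = 0.429). That call ended in 7 of the 19 fits without 1 array too. In osteoblasts Tnrc6b was higher at 50 mg/kg by 1.10 (SE 0.29, adjusted p = 0.00658). In osteocytes Tnrc6b fell, at -1.51 (adjusted p = 3.63e-06), as did Herc1, at -1.35 (adjusted p = 0.000586), and Nipbl, at -1.27 (adjusted p = 0.00271). No gene was called in the difference from osteoblasts when only the groups of the contrast were fitted, and the count was 4 without lining vehicle replicate 4, 5 without lining vehicle replicate 3 or lining 50 mg/kg replicate 1, 38 without lining 50 mg/kg replicate 5, 33 without lining 50 mg/kg replicate 2 and 31 without lining vehicle replicate 1. It was 7 without lining 50 mg/kg replicate 3, 11 without lining 50 mg/kg replicate 4, 8 without osteoblast vehicle replicate 5 or osteoblast 50 mg/kg replicate 4, and 30 without osteoblast 50 mg/kg replicate 2.

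**Figure D5:**
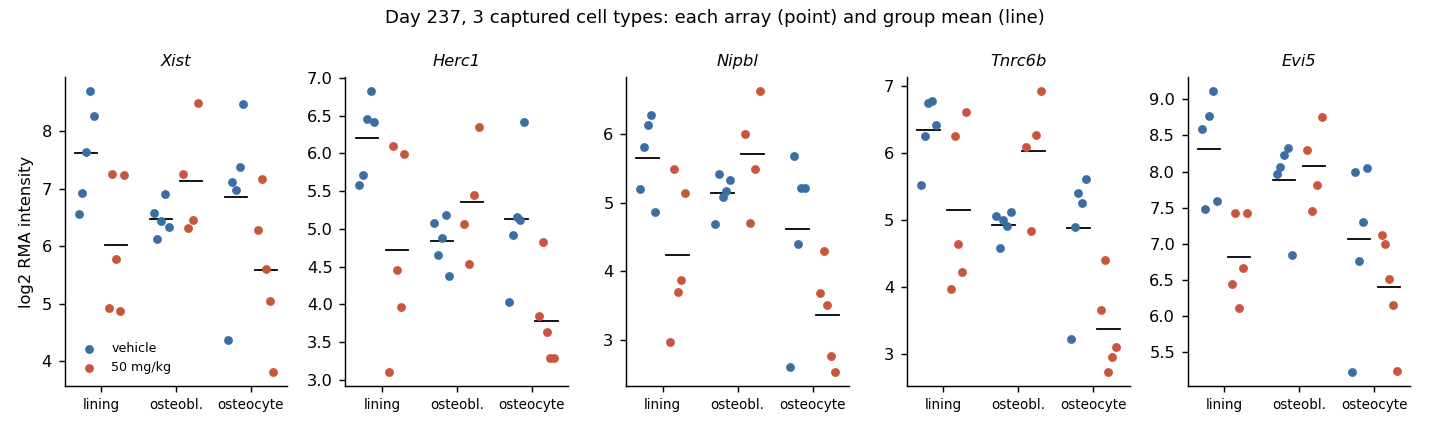
Log2 RMA intensity (y axis) of Xist, Herc1, Nipbl, Tnrc6b and Evi5 on each array of day 237 in the 3 captures (x axis), vehicle in blue and 50 mg/kg in red, with a line at each group mean. In lining cells 3 of the 5 red points of Xist, Herc1, Nipbl and Tnrc6b lie below every blue point, and in osteoblasts the red mean lies above the blue one for all 5 genes.

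Stfa2l2 and Jchain, genes typical of immune cells, fell too. Stfa2l2, a stefin A-like inhibitor of cysteine proteases typical of neutrophils, had the largest fall. It measured 7.05, 8.80, 8.66, 9.81 and 8.29 on the vehicle arrays and 5.82, 6.65, 7.18, 6.93 and 6.37 on the 50 mg/kg arrays, with only vehicle replicate 1 inside the treated range. The difference was -1.93 (SE 0.44, adjusted p = 0.012), 3.81-fold lower. Without vehicle replicate 4, Stfa2l2 was not called, at -1.61 (adjusted p = 0.0767). On day 183 it was 0.40 (adjusted p = 0.829), and the change between these days was -2.33 (SE 0.63, adjusted p = 0.0416). The call of that change ended with the mean of its probe sets (-2.33, adjusted p = 0.0554), with no filter (-2.33, adjusted p = 0.0501), after quantile normalization (-2.01, adjusted p = 0.0894) and with signal range as a covariate (-1.85, adjusted p = 0.14). It ended in 14 of the 20 fits without 1 array as well. On day 309 it was called lower again, at -1.996 (SE 0.44, adjusted p = 0.00986), and on day 237 it was -1.72 (adjusted p = 0.0204) in osteoblasts and -1.72 (adjusted p = 0.00726) in osteocytes. None of the 10 granulocyte markers was called, near the background of 0.922% of all genes called lower, and their median was -0.07.

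Jchain, the joining chain of secreted antibodies in plasma cells, measured 9.17, 9.58, 10.03, 9.68 and 8.87 with vehicle and 8.50, 8.52, 7.01, 8.34 and 9.52 with 50 mg/kg. Treated replicate 5 lay within the vehicle range and replicate 3 far below the others. The difference was -1.09 (SE 0.29, adjusted p = 0.0295), and on day 309 it was -2.30 (SE 0.29, adjusted p = 5.98e-08). Jchain was not called in the fits that left out, 1 array at a time, vehicle replicates 2, 3 and 4 or 50 mg/kg replicates 3 and 4, with values from -1.08 to -0.74 (adjusted p = 0.0632 to 0.205). The call of Jchain ended with the marrow marker mean as a covariate (-0.93, adjusted p = 0.0619), with the mean of its probe sets (-0.81, adjusted p = 0.137), in a fit of only the groups compared (-1.09, adjusted p = 0.098) and with signal range as a covariate (-0.97, adjusted p = 0.0513). Jchain was the 1 called gene of 11 tested B-lineage markers (0.922% of all genes were called lower, and nothing is read from 1 gene), all 11 of which had negative differences with a median of -0.39. The surface marker Ms4a1 was at -0.57 (adjusted p = 0.361) and the light chain partner Vpreb3 at -0.90 (adjusted p = 0.209). The summed linear intensity of the list was 970 to 1636 on the vehicle arrays and 652 to 1177 on the 50 mg/kg arrays. The list median was -0.30 on day 183 and -0.25 on day 309.

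Of 30 genes of bone, Wnt and osteoclast biology followed in every comparison, 22 passed the filter and none was called, with adjusted p from 0.111 upwards. With 1.45% of all genes called, 0 of 22 is near the background. Bglap, osteocalcin, measured 7.61, 8.43, 7.52, 6.66 and 6.55 with vehicle and 6.50, 7.13, 6.77, 5.87 and 4.55 with 50 mg/kg, which overlap. Its difference was -1.19 (SE 0.45, adjusted p = 0.165), and against the vehicle arrays of days 183 to 309 it was -1.64 (adjusted p = 0.0105). Col1a1, the main collagen chain of bone, was at -0.21 (SE 0.45, adjusted p = 0.875) and Col1a2 at -0.53 (SE 0.43, adjusted p = 0.597). Alpl, alkaline phosphatase of mineralizing cells, measured 5.20, 5.11, 5.18, 5.78 and 5.53 with vehicle and 5.64, 6.01, 5.79, 5.79 and 6.58 with 50 mg/kg, a difference of 0.60 (SE 0.21, adjusted p = 0.133). Postn, periostin, was at 0.58 (adjusted p = 0.48) and Sparc, osteonectin, at -0.24 (adjusted p = 0.795). None of 29 bone matrix genes was called, likewise near the background, and their median was 0.03.

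Cxcl12, the chemokine that stromal cells use to hold blood-forming cells, measured 11.83, 11.34, 11.62, 11.63 and 11.51 with vehicle and 11.01, 10.95, 11.39, 10.92 and 10.87 with 50 mg/kg. Treated replicate 3 was the only treated array inside the vehicle range. The difference of -0.56 (SE 0.19, adjusted p = 0.111) was not called, another Cxcl12 probe set gave 0.01, the mean of the probe sets gave -0.17 (adjusted p = 0.58), and in osteoblasts the difference was -0.70 (adjusted p = 0.00948). The osteoclast genes Ctsk, a collagen-cutting protease, and Acp5, an acid phosphatase, were at 0.13 (adjusted p = 0.888) and 0.26 (adjusted p = 0.817), with treated replicate 4 low in both. The osteocyte genes Mepe and Dmp1, both of mineralized matrix, were at 0.77 (adjusted p = 0.526) and -0.49 (adjusted p = 0.635). In osteocytes of the same day they rose, at 2.86 (adjusted p = 2.49e-06) and 1.69 (adjusted p = 0.000723), and the difference in response was -2.18 (SE 0.56, adjusted p = 0.00701) for Dmp1 and -2.09 (SE 0.71, adjusted p = 0.0701) for Mepe.

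Of the Wnt pathway genes 1 was called, where 0.922% of all genes were called lower, and nothing is read from 1 gene. Among 15 tested Wnt target genes Tcf7l2, a transcription factor that acts with beta-catenin, was lower, at 5.65, 5.37, 5.44, 5.37 and 4.78 against 4.94, 4.30, 4.93, 4.05 and 4.26. The groups overlapped through the low vehicle replicate 5, and the difference was -0.82 (SE 0.21, adjusted p = 0.0242). Tcf7l2 was not called in the fits that left out, 1 array at a time, vehicle replicates 1, 2, 3 and 4 or 50 mg/kg replicates 2, 4 and 5, with values from -0.81 to -0.71 (adjusted p = 0.0569 to 0.0923). The call of Tcf7l2 ended in a fit of only the groups compared (-0.82, adjusted p = 0.0512) and against the late vehicle arrays (-0.48, adjusted p = 0.171). It fell in osteoblasts, at -0.99 (adjusted p = 0.0106), and rose in osteocytes, at 2.05 (adjusted p = 1.75e-11), so that lining cells minus osteocytes was -2.87 (SE 0.37, adjusted p = 1.73e-10). Lef1, another factor of that family, was at -0.02 (adjusted p = 0.981), and the secreted Wnt binders Sfrp4 and Wif1 were at 0.00 (adjusted p = 0.994) and -0.04 (adjusted p = 0.951). None of 9 Wnt antagonist genes and none of 16 Wnt ligands and receptors was called, near the background of all genes, with medians of 0.01 and 0.04.

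Members of 6 other lists were called, 1 each apart from 2 cell cycle genes; with 1.45% of all genes called, nothing about a list is read from 1 or 2 genes. Msx1, a homeobox factor among 17 osteoblast differentiation genes, rose by 0.50 (SE 0.13, adjusted p = 0.0308), and Ndufb8, a subunit of respiratory complex I among 39 tested, by 0.51 (SE 0.13, adjusted p = 0.0197) from a dim level of 3.15. Among 36 cell cycle genes Tk1, thymidine kinase, rose by 0.76 (SE 0.19, adjusted p = 0.0212) while E2f1, a factor of S phase entry, fell by 0.60 (SE 0.17, adjusted p = 0.0389). Other Tk1 probe sets gave 0.31 and -0.25. Sesn2, a stress gene among 13 tested p53 targets, fell by 0.86 (SE 0.22, adjusted p = 0.0258), Jund, a factor among 29 immediate early and heat shock genes, by 0.50 (SE 0.13, adjusted p = 0.0263), and Mb, myoglobin, the 1 call among 16 muscle markers, rose by 0.57 (SE 0.14, adjusted p = 0.0176) from a dim level of 2.91. Msx1 was not called in the fits that left out, 1 array at a time, vehicle replicates 1, 3 and 4 or 50 mg/kg replicates 1, 3 and 5, with values from 0.39 to 0.50 (adjusted p = 0.0551 to 0.165). Ndufb8 was not called in the fits that left out, 1 array at a time, vehicle replicate 2 or 50 mg/kg replicate 3, with values of 0.48 (adjusted p = 0.0551 to 0.0608). Tk1 was not called in the fits that left out, 1 array at a time, vehicle replicates 2 and 4 or 50 mg/kg replicates 2 and 5, with values from 0.67 to 0.71 (adjusted p = 0.0668 to 0.0818). E2f1 was not called in the fits that left out, 1 array at a time, vehicle replicates 3, 4 and 5 or 50 mg/kg replicates 3, 4 and 5, with values from -0.61 to -0.48 (adjusted p = 0.0573 to 0.204). Sesn2 was not called in the fits that left out, 1 array at a time, vehicle replicates 2, 3 and 4 or 50 mg/kg replicates 1 and 3, with values from -0.86 to -0.64 (adjusted p = 0.0569 to 0.127). Jund was not called in the fits that left out, 1 array at a time, vehicle replicates 2 and 3 or 50 mg/kg replicates 1 and 5, with values from -0.49 to -0.42 (adjusted p = 0.0671 to 0.109). Mb was not called in the fits that left out, 1 array at a time, vehicle replicate 4 or 50 mg/kg replicate 3, with values from 0.43 to 0.56 (adjusted p = 0.0513 to 0.113). The call of Msx1 ended with the marrow marker mean as a covariate (0.42, adjusted p = 0.0656), in a fit of only the groups compared (0.50, adjusted p = 0.137) and with signal range as a covariate (0.41, adjusted p = 0.0563). The call of Ndufb8 ended in a fit of only the groups compared (0.51, adjusted p = 0.061). The call of Tk1 ended with the mean of its probe sets (0.27, adjusted p = 0.371). The call of E2f1 ended with the marrow marker mean as a covariate (-0.55, adjusted p = 0.0704), in a fit of only the groups compared (-0.60, adjusted p = 0.108), after quantile normalization (-0.50, adjusted p = 0.108), with signal range as a covariate (-0.53, adjusted p = 0.0658) and against the late vehicle arrays (-0.41, adjusted p = 0.0896). The call of Sesn2 ended with the mean of its probe sets (-0.37, adjusted p = 0.113), in a fit of only the groups compared (-0.86, adjusted p = 0.0743), after quantile normalization (-0.73, adjusted p = 0.0905) and against the late vehicle arrays (-0.43, adjusted p = 0.248). The call of Jund ended with the mean of its probe sets (-0.13, adjusted p = 0.475), in a fit of only the groups compared (-0.50, adjusted p = 0.0958), after quantile normalization (-0.39, adjusted p = 0.207) and against the late vehicle arrays (-0.10, adjusted p = 0.801). Adipoq was also the 1 call among 19 marrow stromal and lining cell genes. In the other 22 of 33 lists no member was called, and their medians ran from -0.18 to 0.14.

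The response of day 237 differed from that of day 183 for 127 genes, 1.09% of those tested, with 14 higher (0.121%) and 113 lower (0.974%). Rrbp1, a ribosome receptor of the endoplasmic reticulum, moved from -0.71 on day 183 to 0.58 on day 237, a change of 1.28 (SE 0.28, adjusted p = 0.0118). Its other probe set gave -0.45 on day 237. Get4, which helps insert tail-anchored proteins, moved by 1.09 (SE 0.27, adjusted p = 0.0245), although its second probe set gave -0.38 on day 237. Kcnj3, a potassium channel, moved by 1.10 (SE 0.29, adjusted p = 0.0373), and its other probe sets gave 0.00 and -0.21 on day 237. The called change of Rrbp1 ended with the mean of its probe sets (0.45, adjusted p = 0.43). The called change of Get4 ended with the mean of its probe sets (0.25, adjusted p = 0.609). The called change of Kcnj3 ended with the mean of its probe sets (0.42, adjusted p = 0.188), after quantile normalization (1.24, adjusted p = 0.0521) and with signal range as a covariate (0.83, adjusted p = 0.14). Rbm3, an RNA-binding protein of the cold response, was 6.65, 6.86, 7.08, 6.97 and 6.68 with vehicle and 6.01, 6.02, 5.42, 5.41 and 5.57 with 50 mg/kg without overlap, and moved by -2.10 (SE 0.49, adjusted p = 0.0165) from 0.94 on day 183. Its day 237 difference of -1.16 was itself not called. That difference was called in 2 of the 8 other fits and in 0 of the 10 fits without 1 array. Against the late vehicle arrays it was -0.71 (adjusted p = 0.444). The called change of Rbm3 ended with signal range as a covariate (-1.46, adjusted p = 0.0576). Xist moved by -2.33 (SE 0.59, adjusted p = 0.0253) and Evi5 by -2.08 (SE 0.39, adjusted p = 0.00219). The called change of Xist ended with the mean of its probe sets (-1.25, adjusted p = 0.0943), after quantile normalization (-2.10, adjusted p = 0.0597) and with signal range as a covariate (-2.09, adjusted p = 0.0814). In the 20 fits without 1 array the call of the change ended 6 times for Xist, 12 times for Kcnj3 and 3 times for Get4. That of Rpl18, whose change was 1.10, ended 9 times. The number of genes was 60 after quantile normalization, 40 with signal range as a covariate and 462 with only the compared groups in the fit. Without 1 array it fell to 55 (day 237 vehicle replicate 4), 66 (day 237 vehicle replicate 3), 67 (day 183 vehicle replicate 4 or day 183 50 mg/kg replicate 3), 70 and 62 (day 183 50 mg/kg replicates 4 and 5), or rose to 228 (day 237 vehicle replicate 5).

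Between day 237 and day 309 no gene was called in the difference of responses (0.00% of 11600) by limma, with 426 genes at an unadjusted p under 0.05 and 19 called with array weights. Of the genes called lower on day 237, 8 of 107 (7.48%) were also called lower on day 309, which is 21.1% of its 38, and they included Stfa2l2 and Jchain. Of those called higher 2 of 61 were (Cyth1 and Vmp1). With day 183 the shared calls were 2 of 61 higher (Gsn and Selp) and 1 of 107 lower (Akap12). Of all genes tested, 0.0776% were called higher and 0.328% lower on day 309, and 0.810% and 0.190% on day 183. Vmp1, Gsn and Akap12 were named after their values were seen.

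Calls shared with osteoblasts and osteocytes of day 237 are not independent, since the captures came from the same animals. Of the 61 higher genes 22 (36.1%) were called higher in osteoblasts, 6.30% of the 349 there, and of the 107 lower genes 48 (44.9%) were called lower, 5.85% of 821. Those higher in both included Selp, Alox12, Myl9, Tpm2, Lmna, Rsu1, Clcn2 and Btbd9, and those lower in both included Adipoq, Pck1, Car3, Gpd1, Stfa2l2 and Jchain. Only 2 of the lower genes were called higher in osteoblasts, 1 of them Tnrc6b. With osteocytes 12 of 61 higher genes (19.7%) and 33 of 107 lower genes (30.8%) were shared, and 1 and 4 were called in the opposite direction. Of all genes tested, 2.79% were called higher and 6.56% lower in osteoblasts, and 7.11% and 6.21% in osteocytes. Among the largest gaps in the difference from osteocytes were Bambi, a decoy receptor for BMP and TGF-beta, at -0.12 in lining cells and 3.22 in osteocytes with a difference of -3.34 (SE 0.42, adjusted p = 1.37e-10), and Mef2c, a factor that drives Sost, at -0.56 and 2.78 with a difference of -3.34 (SE 0.44, adjusted p = 5.83e-10). Among the gaps in favour of lining cells were F5, coagulation factor V, at 0.22 and -1.66 with a difference of 1.88 (SE 0.42, adjusted p = 0.0011), and Fcna, the macrophage lectin ficolin A, at -0.20 and -2.02 with a difference of 1.82 (SE 0.42, adjusted p = 0.00165). The call of F5 in this difference ended in a fit of only the groups compared (1.88, adjusted p = 0.052). The count of that difference was 291 with only its own groups fitted, and 347 and 339 without osteocyte vehicle or 50 mg/kg replicate 5.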

How the data were processed

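Gene expression was measured on Affymetrix rat arrays in laser-captured cells. The authors deposited linear intensity values of 31042 probe sets on 294 arrays, and per the submitters' processing notes they used RMA (affy 1.38.1 under R 3.0.1, and Affymetrix Expression Console). RMA subtracts background and equalizes array distributions, so global shifts between arrays cannot be seen, and amplification of the RNA before labelling can distort levels. The design had assumed log2 values, and log2 was taken here. GEO's platform annotation gave 1 gene for 20826 probe sets, several for 436 and none for 9780; 20758 symbols were updated by gene ID. The probe set with the highest mean over all arrays stood for each of 14217 genes, 4525 of which had several. Genes above their array's median on at least 5 arrays were tested, 11600 in lining cells and 12507 over the 3 cell types. limma 3.58.1 in R 4.3.3 fitted all 100 lining cell arrays with 20 group means (all 294 arrays for cell type differences), with Benjamini-Hochberg adjusted p under 0.05 as the threshold. The number of arrays limits the precision. The script was tested on simulated data.

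The members and gene lists were chosen with earlier results of these data known. Genes named were the 12 largest called rises and falls, up to 4 called members of each of 33 lists, 30 fixed bone, Wnt and osteoclast genes and the 4 largest called genes each way in each difference of responses. Other list members that did not pass were named after their values were seen. Alternatives were no filter, quantile normalization, the mean of probe sets, array weights, signal range or the marrow marker mean as a covariate, only the groups of the contrast, the vehicle arrays of days 183 to 309 together as control, and leaving out each array in turn. For the 4 differences of responses, the fits without 1 array were added after seeing the data. No 2 of the 10 arrays held identical values.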

Additional observations from a re-analysis of the deposited data

Results flagged for a closer look

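One array lay far from the other 4 of its group, by Dixon's criterion with a critical value of 0.71, in 8 of 140 groups of values examined; chance marks about 1 group in 20. Vehicle replicate 5 was high in Gpd1 at 6.61 (the others 5.51 to 5.79) and low in the marrow marker mean at 7.47 (7.74 to 7.78). Vehicle replicate 3 was low in Cidec at 3.41 (4.50 to 4.64). Treated replicate 4 was low in Ctsk at 10.99 (12.56 to 13.18), in Omd, osteomodulin, at 2.94 (3.48 to 3.55), and in Get4 at 5.21 (5.72 to 5.85). Treated replicate 3 was high in Cxcl12 at 11.39 (10.87 to 11.01), and treated replicate 1 in Wif1 at 2.83 (2.57 to 2.64).

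The response to 50 mg/kg, as a log2 fold change, differed between day 237 and day 183 by limma's test of the difference, as day 237 minus day 183, for the named genes Cyth1 0.91, Rpl18 1.10, Stfa2l2 -2.33, Xist -2.33, Evi5 -2.08, Nipbl -1.62, Emsy -1.39, Tnrc6b -1.39, Jchain -1.72, Hipk1 -1.61, Rrbp1 1.28, Kcnj3 1.10, Get4 1.09 and Rbm3 -2.10. Between lining cells and osteoblasts of day 237, as lining cells minus osteoblasts, it differed for Evi5 -1.69, Herc1 -1.99, Nipbl -1.99, Emsy -1.57, Tnrc6b -2.30, Sh3yl1 0.83, Lrrfip1 -2.96 and Golim4 -2.09. Between lining cells and osteocytes, as lining cells minus osteocytes, it differed for Alox12 1.71, Selp 1.50, Tcf7l2 -2.87, Tk1 1.42, Jund -0.97, Ccn4 -1.29, Alpl 1.24, Dmp1 -2.18, F5 1.88, Fcna 1.82, Gp9 1.62, LOC100912227 -3.37, Bambi -3.34, Mef2c -3.34 and Ackr3 -3.17. For lining cells minus osteoblasts, the call of Golim4 ended in 12 of the 19 fits without 1 array. Those of Sh3yl1 and Lrrfip1 ended in 11 and 0. With the mean of probe sets Golim4 was at -0.82 (adjusted p = 0.422) and Lrrfip1 at -0.83 (adjusted p = 0.154). Sh3yl1 was then at 0.83 (adjusted p = 0.0677). Golim4 was also lost with no filter (adjusted p = 0.0561) and after quantile normalization (adjusted p = 0.0922). In a fit of only the groups compared no gene was called.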

How the results depend on the processing

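Array weights, quantile normalization and the other settings reversed no called value among those run. The day 237 count of 168 was 107 with the mean of probe sets and 724 with array weights, and 59 to 255 without 1 array. It was 172 with no filter, 141 after quantile normalization, 184 with signal range and 149 with the marrow marker mean as covariates, 144 with only the groups compared and 123 against the late vehicle arrays, 55 of them shared with the 168. The day 237 minus day 183 count of 127 was 60 after quantile normalization, 73 with the mean of probe sets, 1175 with array weights, 40 with signal range, 462 with only its groups, and 55 to 228 without 1 array. For day 237 minus day 309 it was 19 with array weights and 0 to 0 without 1 array. For lining cells minus osteoblasts the count of 17 was 5 with the mean of probe sets, 27 with array weights, 28 with signal range, 0 with only its groups, and 4 to 38 without 1 array. For lining cells minus osteocytes the count of 532 was 291 with only its groups and 339 to 726 without 1 array. The marrow marker mean differed by -0.187 to -0.0973 and signal range by -0.216 to -0.0964 without 1 array. The causes were not tested. Genes near background have compressed differences. No paired analysis was possible because vehicle and 50 mg/kg were different rats, and for the cell types, which share rats, no label says which rat an array came from.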

Other observations

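The genes below were named after their values were seen, and no list or test stands behind their grouping. Genes of lipid handling that were lower with 50 mg/kg at day 237 were Cdo1, a cysteine dioxygenase of fat and liver, at -1.15 (SE 0.27, adjusted p = 0.0129), Retsat, a retinol saturase, at -0.88 (SE 0.24, adjusted p = 0.0356), the droplet coat gene Plin2 at -0.81 (SE 0.23, adjusted p = 0.0432) and the glycerol channel gene Aqp7 at -0.78 (SE 0.21, adjusted p = 0.0346). None of these 4 genes overlapped between groups, which also held for 56 of the 107 called falls and, with 50 mg/kg lower, for 2.25% of all genes. Among genes of the interferon response and immune cells, Ifitm1 was at -1.07 (SE 0.28, adjusted p = 0.0285), Slfn4 at -1.05 (SE 0.28, adjusted p = 0.0295), Sp110 at -0.81 (SE 0.20, adjusted p = 0.0212), Slfn9 at -0.66 (SE 0.17, adjusted p = 0.0294) and Trim34 at -0.58 (SE 0.14, adjusted p = 0.0203). Of the 23 tested genes of the interferon list 0 were called, near the background of 0.922% of all genes called lower. In that list 17 of the 23 differences were negative, with a median of -0.18. Genes found in platelets or red cells that rose were Gsn, the actin-severing gelsolin, at 0.81 (SE 0.21, adjusted p = 0.0257), Pear1, a platelet receptor, at 0.80 (SE 0.18, adjusted p = 0.00907), and Sptb, the beta spectrin of red cells, at 0.69 (SE 0.18, adjusted p = 0.0296). Gsn was also called higher in osteocytes of that day. Of 17 tested erythroid markers none was called, near the background of 1.45% of all genes. Their median was 0.02, with 9 positive and 8 negative differences.

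Grk6, a kinase that turns off G protein-coupled receptors, was lower at -0.98 (SE 0.16, adjusted p = 0.000195) without overlap, and it was called lower in osteoblasts and osteocytes of that day and in lining cells on day 309 too. Lmo4, a LIM-only adaptor, was at -1.06 (SE 0.19, adjusted p = 0.000571). Some of the largest differences did not pass: Fam111a was at 1.89 (SE 0.89, adjusted p = 0.282), Mgp, matrix Gla protein, at 1.83 (SE 0.58, adjusted p = 0.0776) and Stfa3, another stefin A gene, at -1.42 (SE 0.55, adjusted p = 0.171).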
